A study of Rattus norvegicus with 6 samples.

Results

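Expression of costimulatory and checkpoint molecules was compared between the soft tissue around a dental implant and the oral mucosa of a healed extraction site without one. The set held 10 genes chosen by name, namely Sectm1b, Icos, Cd274, Cd80, Cd86, Cd28, Ctla4, Cd40, Cd83 and Havcr2. Of these, 8 had a probe set annotated to that gene alone, among 14217 genes with such a probe set on the array. Cd274, which encodes PD-L1, and Havcr2, which encodes TIM-3, were not analysed here. Where a gene had several, its brightest probe set over the 6 arrays was used. The 3 peri-implant samples came from the left upper jaw of male Sprague Dawley rats, at the site where the first molar had been extracted and a titanium alloy implant placed. The 3 mucosal samples came from the right side, where the molar had been extracted and no implant was placed. Rats were 4 weeks old at surgery and tissue was taken 4 weeks later. Both sides had lost a tooth, and the effects of the implant and of the side of the mouth cannot be told apart. No label states whether each sample of a tissue came from its own rat. P-values therefore refer to the spread among these samples, and that spread may be technical.

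T cells need a signal beside that of the antigen receptor to become activated. CD28 and ICOS on the T cell give such a signal when they bind CD80 or CD86, and ICOS ligand, on antigen-presenting cells, whereas CTLA-4 competes with CD28 for CD80 and CD86 and restrains the response. CD40 on dendritic cells, macrophages and B cells is engaged by CD40 ligand on T cells, and CD83 is a surface marker of mature dendritic cells. Human SECTM1, the relative of the rat Sectm1b product, is a ligand of CD7 on T cells and natural killer cells.

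Sectm1b and Icos were higher in peri-implant soft tissue, by 22.2-fold and 3.73-fold. Cd86 and Cd40 had higher signals on every peri-implant array than on any mucosal array, but Cd86 did not pass the test and Cd40 was too dim to be tested in the main comparison. Cd83 was nearly level between the tissues, and Cd80, Cd28 and Ctla4 were dim in both. Signals are log2 values as deposited. A gene is called dim in a group when its mean lies below 5.90, the 40th percentile of all single values, and a probe set was tested when its mean over the 6 arrays exceeded 5.68. Of the 8 measured genes 4 were tested, Sectm1b, Icos, Cd86 and Cd83, and in all 4 both group means lay above 5.68. Of these, 2 were called higher and 0 lower in limma at an adjusted p under 0.05, where 15.2% of the 10585 genes tested were called higher and 11.0% lower. Without a filter on low signals, limma called 3 of 8 higher, with Cd40 as the third, and 0 lower, against 10.4% and 7.34% of 14217 genes. At an unadjusted p under 0.05 the limma counts among the 4 tested genes were 3 higher, with Cd86 as the third, and 0 lower. The share of all genes at that threshold was not counted, so these counts have no background and are not read further. The groups did not overlap in 4 of the 8 genes, with 4 higher and 0 lower in peri-implant tissue. Over all genes, 19.8% were higher without overlap and 15.3% lower. The median difference was 0.45 over the 8 genes, where all genes had a median of 0.02. In bulk tissue, a change in the number of cells of a type and a change in RNA per cell cannot be told apart.

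**Figure D1:**
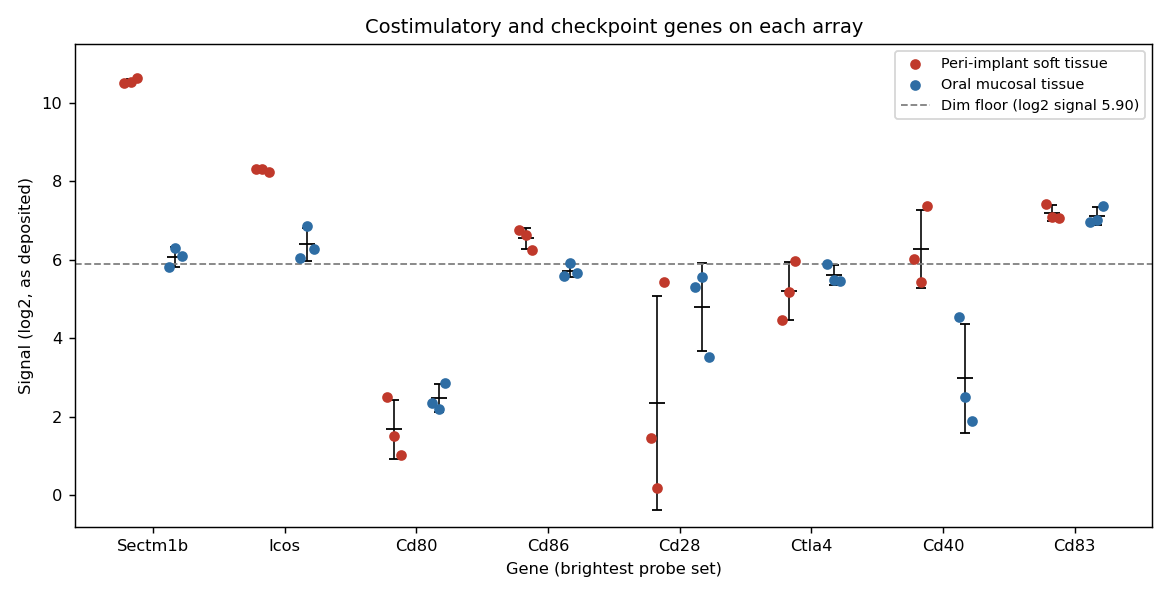
Signal (log2, as deposited) of the 8 measured genes on each array, with 3 peri-implant points left of 3 mucosal points and the mean and SD in black; the dashed line is the dim floor of 5.90. Sectm1b and Icos sit apart between the tissues and above the line in peri-implant tissue, while Cd80 and Cd28 lie below it on every array.

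The ligand-type gene Sectm1b had the largest difference of the set. Its signal was 10.50, 10.52 and 10.62 on the peri-implant arrays, against 5.81, 6.31 and 6.10 on the mucosal arrays. All peri-implant values were high and close together, all mucosal values lay near the dim floor, and the groups were far apart. Within its array the probe set stood between the 88.7th and 89.5th percentile of all probe sets in peri-implant tissue, against the 39.7th to 43.8th in mucosa. The mean was 10.55 ± 0.07 against 6.07 ± 0.25 (SD, n = 3 each), a difference of 4.47 (SE 0.17, limma adjusted p = 8.40e-10). The difference ranked 9 among the 10585 genes tested, ordered from the largest rise. After values under the dim floor were set to it, the difference was 4.44. Sectm1b has 1 probe set, so no other reading of the gene was at hand.

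The genes whose pattern over the 6 arrays lay nearest to that of Sectm1b, by the Euclidean distance between values centred on each gene's mean, were Cfi, Serpinb3 and Saa3. Their distances were 0.48, 0.60 and 0.62 log2 units. Cfi, complement factor I, differed by 4.41 and Saa3, an acute-phase serum amyloid, by 4.73. Serpinb3, a serpin family protease inhibitor of squamous epithelium, differed by 4.18. With 2 groups of 3 arrays this measure mostly reads the size of the group difference.

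The promoter windows of the 2 genes that were called higher are given so that the letters upstream of each start can be read. They are from RefSeq on the rat GRCr8 build, each 300 bases long and ending shortly after the annotated start, in the direction of the gene, and 9 of the 10 genes matched by symbol, with 10 windows in all. The build behind the array is not given in the sources used here. Capitals mark a match to 1 of 4 motifs searched on both strands: GGGANTTTC, a shortened form of the NF-kB site, TTCNNNGAA, the STAT or GAS site, TTTCNNTTT, from the core of the interferon-stimulated response element, and TGANTCA, a form of the AP-1 site.
Sectm1b (chr10:106832055-106832354, minus strand): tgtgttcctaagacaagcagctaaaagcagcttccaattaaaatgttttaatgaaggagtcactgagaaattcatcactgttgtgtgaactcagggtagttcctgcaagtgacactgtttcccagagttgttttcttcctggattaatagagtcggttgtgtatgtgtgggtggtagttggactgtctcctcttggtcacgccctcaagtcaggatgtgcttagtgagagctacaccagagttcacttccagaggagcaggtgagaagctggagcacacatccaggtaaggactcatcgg
Icos (chr9:69877549-69877848, plus strand): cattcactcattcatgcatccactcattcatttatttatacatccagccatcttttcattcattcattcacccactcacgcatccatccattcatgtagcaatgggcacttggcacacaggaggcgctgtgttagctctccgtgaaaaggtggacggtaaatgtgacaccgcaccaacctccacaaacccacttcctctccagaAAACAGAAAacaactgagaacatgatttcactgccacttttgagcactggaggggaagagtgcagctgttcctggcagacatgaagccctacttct
The capitals in Icos are 1 match to the response element pattern on the opposite strand, and the Sectm1b window held none of the 4 patterns. Of the 9 genes, 3 held the response element pattern, Icos, Cd274 and Cd80, as did 11.8% of all 33469 promoter windows of that length. The GAS pattern was in 2, Havcr2 and Cd80, against 8.87% of all windows. Cd80 has more than 1 window, so it had more chances to match than a single window. The NF-kB and AP-1 patterns were in 0 of the 9 genes, against 1.15% and 7.33%. A match describes letters and does not show binding, and no match says only that these letters are not in this window.

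Among the T cell receptors of the set, Icos was higher, and Cd28 and Ctla4 were too dim to order. These 3 genes follow one another on rat chromosome 9 with 0 protein-coding genes between them in the RefSeq annotation. Icos, the inducible costimulator, had a signal of 8.32, 8.32 and 8.24 in peri-implant tissue, against 6.05, 6.86 and 6.27 in mucosa. The peri-implant arrays lay together and above all mucosal arrays, of which the second was the highest. The mean was 8.29 ± 0.04 against 6.40 ± 0.42, a difference of 1.90 (SE 0.25, limma adjusted p = 1.08e-04).

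Icos has 2 other probe sets, which differed in how far they followed the brightest one. The second read 7.01, 6.91 and 6.93 in peri-implant tissue, against 4.09, 5.86 and 3.48 in mucosa, where it was dim. Its groups did not overlap and it differed by 2.47 (SE 0.56, limma adjusted p = 0.00605), but it passed the filter only through the peri-implant arrays. The third, dim in both groups and not tested, read 5.39, 5.99 and 5.81 against 4.15, 5.97 and 5.12, and its groups overlapped. Mucosal array 2 was the highest mucosal array on all 3 probe sets.

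**Figure D2:**
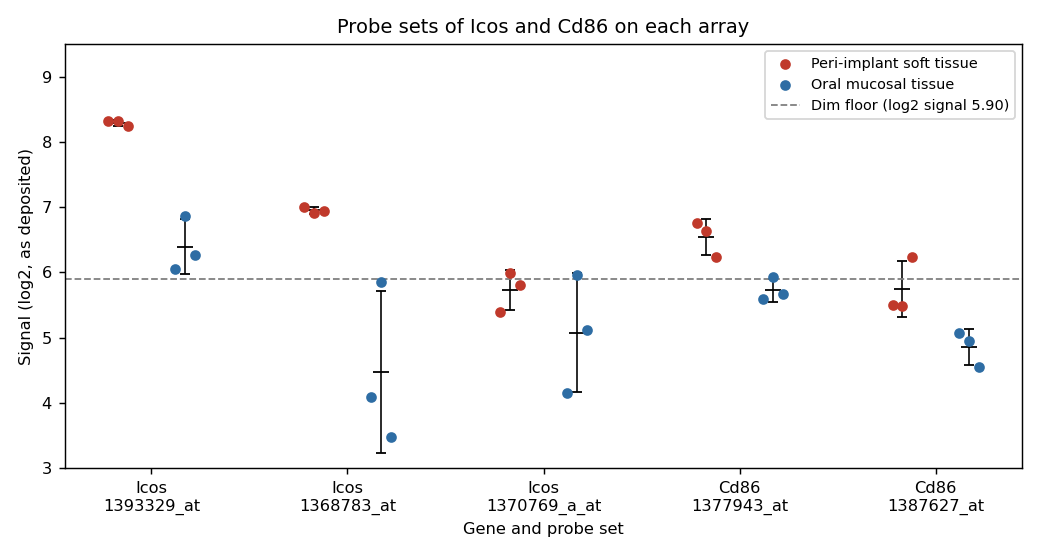
Signal (log2, as deposited) on each array for the 3 probe sets of Icos and the 2 of Cd86, peri-implant points left of mucosal points, mean and SD in black, dim floor dashed. The brightest 2 Icos probe sets separate the tissues and the third does not, and both Cd86 probe sets separate them by less than the brightest Icos probe set does.

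Cd28, the main costimulatory receptor of T cells, had a signal of 1.47, 0.20 and 5.43 in peri-implant tissue, against 5.31, 5.56 and 3.52 in mucosa. Both groups lay wholly below the dim floor and overlapped, and values at such a level have no dependable order. The difference of -2.44 had an interval of -5.27 to 0.40 in limma without a filter (adjusted p = 0.306) and was 0 after flooring. Ctla4, the inhibitory receptor, read 4.47, 5.19 and 5.96 in peri-implant tissue, against 5.90, 5.49 and 5.46 in mucosa. Its groups overlapped, and its difference of -0.41 had an interval of -1.74 to 0.92 (limma without a filter, adjusted p = 0.768). For both receptors a change within these intervals was not detectable with 3 arrays a group at this signal.

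Of the B7 ligands, Cd86 was higher on all peri-implant arrays without passing the test. It read 6.76, 6.64 and 6.24 in peri-implant tissue, against 5.59, 5.93 and 5.67 in mucosa. The lowest peri-implant value lay above the highest mucosal value by less than the range within the peri-implant group. The mean was 6.55 ± 0.27 against 5.73 ± 0.18, a difference of 0.82 with a 95% interval of 0.06 to 1.57 (SE 0.35, limma adjusted p = 0.119). The mucosal mean was dim, and the difference was 0.64 after values under the floor were set to it. The other Cd86 probe set, not tested, gave 5.50, 5.49 and 6.24 against 5.08, 4.95 and 4.55, a difference of 0.89, also without overlap. Without the variance trend, Cd86 passed (limma adjusted p = 0.0270), and over all its alternatives the adjusted p lay between 0.0270 and 0.285 in limma.

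Cd80, the other ligand of CD28 and CTLA-4, was the dimmest gene of the set on average. Its signal was 2.51, 1.50 and 1.04 in peri-implant tissue, against 2.35, 2.21 and 2.87 in mucosa. The groups overlapped, and all 6 arrays lay between the 4.07th and 12.7th percentile of their probe sets. The interval of the difference was -3.03 to 1.44 (limma without a filter, adjusted p = 0.724), and after flooring it was 0.

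Cd40, the receptor through which helper T cells license antigen-presenting cells, had a signal of 6.01, 5.43 and 7.36 in peri-implant tissue, against 4.55, 2.52 and 1.89 in mucosa. All peri-implant arrays were above all mucosal arrays, and peri-implant array 3 was the highest by more than 1 log2 unit. Its mean over the 6 arrays lay under the filter, so it was not tested in the main comparison. In the fit without a filter it passed, with a difference of 3.28 (SE 0.92, limma adjusted p = 0.0323) and an interval of 1.29 to 5.27. The mucosal values were all dim, and after flooring the difference was 0.53, so its size is not settled by these arrays.

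Cd83 was measured above the dim floor on all 6 arrays. It read 7.43, 7.10 and 7.08 in peri-implant tissue, against 6.96, 7.01 and 7.38 in mucosa. The groups overlapped. The mean was 7.20 ± 0.20 against 7.12 ± 0.23, and the difference of 0.09 had an interval of -0.45 to 0.62 (SE 0.25, limma adjusted p = 0.848). The interval's upper end lay below the lower end of that of Icos, 1.35.

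The binding partners of the set were read from a wider list of B7, CD28 and checkpoint family genes. For this list and those below, the shares over all 10585 genes tested were 15.2% called higher and 11.0% called lower. Of 27 listed, 17 were measured and 12 tested, of which 4 were higher, 1 was lower and 7 did not pass, with a median difference of 0.28 over those tested, against 0.03 over all genes tested. Icoslg, the ligand of ICOS, was the gene that fell: it read 8.40, 8.58 and 8.67 in peri-implant tissue, against 9.21, 9.23 and 9.21 in mucosa. The groups did not overlap, and the mucosal arrays lay close together. The difference was -0.67 (SE 0.12, limma adjusted p = 0.00152). Its other probe set did not go the same way, at 7.10, 6.69 and 6.67 against 7.12, 3.79 and 6.55, and with the mean of both the call was lost, at a difference of 0.16 (limma adjusted p = 0.796). The direction of Icoslg thus rests on its brighter probe set.

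Cd7, whose human product is the receptor for SECTM1, was higher by 0.90, at 7.59, 7.24 and 7.35 in peri-implant tissue, against 6.36, 6.98 and 6.15 in mucosa (limma adjusted p = 0.0408). The groups did not overlap, and the call was lost in limma without a filter (adjusted p = 0.0756). Ceacam1, an adhesion molecule of epithelia and leukocytes that has been described as a ligand of TIM-3, was higher by 2.09 (SE 0.08, limma adjusted p = 9.58e-10), at 11.64 ± 0.03 against 9.55 ± 0.09. Lgals9, galectin-9, also described as binding TIM-3, stood at 6.10 ± 0.47 against 6.03 ± 0.40 and did not pass (limma adjusted p = 0.921). Cd276, the B7 family member B7-H3, was higher by 0.75, and Sirpa, the myeloid receptor of CD47, by 0.39 (limma adjusted p = 3.48e-04 and 0.0119). With the mean of the probe sets of each gene the calls of both were lost (limma adjusted p = 0.0992 and 0.93), and the list then held 2 genes higher and 0 lower. It also held 2 higher without peri-implant array 1 or without the variance trend. Pdcd1, which encodes PD-1, and Pdcd1lg2, its other ligand, were not analysed here.

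**Figure D3:**
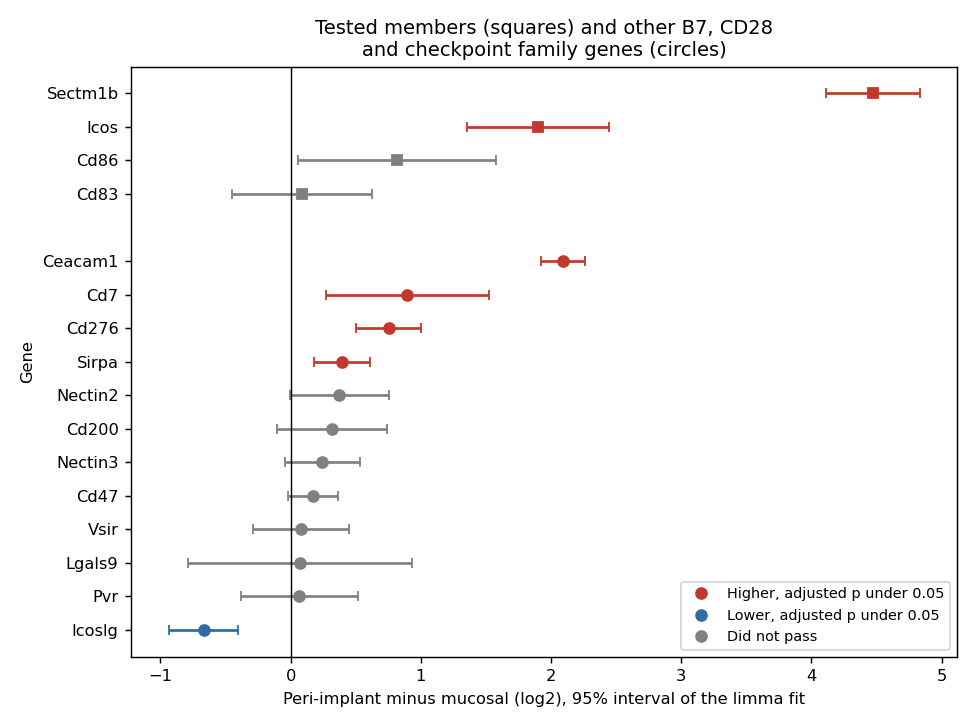
Difference between tissues (log2, peri-implant minus mucosal) with the 95% interval of the limma fit for the 4 tested genes of the set (squares) and the 12 tested genes of the wider B7, CD28 and checkpoint list (circles), red and blue where called higher and lower. Sectm1b, at 4.47, lies far to the right of the others, and Icoslg, at -0.67, is the gene called lower.

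Costimulatory genes of the TNF family were mostly too dim to test. Of 14 listed, 7 were measured and 2 tested, and 0 passed in either direction, with a median of -0.34 over the 2 in limma. Those 2 were Tnfsf9, which encodes the 4-1BB ligand, at 6.14 ± 0.07 against 6.49 ± 0.21, and Tnfrsf25, a death domain receptor, at 6.90 ± 0.33 against 7.22 ± 0.78. At an unadjusted p under 0.05 the count was also 0. Cd40lg, the ligand of CD40, was dim in both tissues, at 4.72, 2.91 and 3.69 in peri-implant tissue, against 0, 1.77 and 5.07 in mucosa. In the SLAM and CD2 family, 3 of 9 genes were measured and both tested members were higher, Cd48 by 0.96 and the T cell adhesion receptor Cd2 by 1.71 (limma adjusted p = 1.18e-04 and 7.28e-04), with a median of 1.34.

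Genes that act below the receptors moved in part. Over all genes tested, 15.2% were called higher and 11.0% lower. In the list for signalling below CD28, CTLA-4 and PD-1, 18 of 22 were measured and 15 tested, with a median of 0.84. Of these 5 were called higher and 1 lower, and 9 did not pass. Zap70, among the 5, passed the filter only through the peri-implant arrays. Lcp2, the adaptor SLP-76, was higher by 1.98, the kinases Fyn and Lck by 0.84 and 0.96, and Nfatc1, a transcription factor of the calcineurin pathway, fell by 1.29 (limma adjusted p = 9.92e-05, 7.69e-04, 0.00429 and 1.68e-04). The count of 5 was 3 without peri-implant array 1, and 2 with the filter at the 60th percentile or with the mean of the probe sets. In the list below CD40, 10 of 10 were measured and 9 tested, with a median of 0.41. Of these 4 were called higher and 0 lower, and 5 did not pass. Tnfaip3, the ubiquitin-editing brake on NF-kB, was higher by 1.85, Nfkb2, the non-canonical subunit, by 0.80, and the inhibitor of apoptosis Birc3 and the adaptor Traf3 by 0.71 and 0.41. Interferon-gamma pathway and response genes were higher in 8 and lower in 0 of 11 tested, from 15 measured of 16, with a median of 1.19. Psmb9, Gbp2, Ifngr1 and Irf1 were higher by 2.28, 1.68, 0.96 and 1.92, whereas Ifng itself was dim, with a mean of 0.90 ± 0.97 against 0.70 ± 0.71, and at 0 on 1 array of each tissue.

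Markers of cell types that can carry these molecules were read on the same arrays, where 15.2% of all genes tested were called higher and 11.0% lower. T cell markers were higher in 4 of 4 tested members, from 10 measured, with a median of 2.15. Their summed linear signal was 1345 to 1479 on the peri-implant arrays, against 308 to 399 on the mucosal arrays, and the antigen receptor genes Cd3g, Cd3e and Cd247 were higher by 2.30, 3.53 and 1.45, and the coreceptor gene Cd5 by 2.01. Cd3e and Cd5 were dim in mucosa and passed the filter only through the peri-implant arrays. Their differences were 1.55 and 0.98 after flooring. The count of 4 of 4 and its median thus rest in part on genes that entered through the tissue where they were high. The count of 4 was 2 without peri-implant array 1 or 2, and 0 with the filter at the 60th percentile. Of the 6 T cell markers not tested, 4 were dim in both tissues, Cd4 among them, and Cd3d and Cd8a were dim in mucosa only. Macrophage and monocyte markers were higher in 6 and lower in 0 of 7 tested, from 9 measured, with a median of 1.00 and summed signals of 7951 to 8687 against 3959 to 4007. Mpeg1, Cd14, Cd68 and Adgre1 were higher by 1.69, 1.00, 0.93 and 1.68, the last by 1.38 after flooring. Adgre1 also passed the filter only through the peri-implant arrays. Dendritic cell markers were higher in 2 of 3 tested, from 6 measured, with sums of 2635 to 2915 against 1116 to 1347, and the integrin gene Itgax and the transcription factor Irf8 were higher by 3.10 and 1.07. Itgax was dim in mucosa and passed the filter only through the peri-implant arrays, with a difference of 2.71 after flooring. Of the regulatory T cell markers 4 were measured and 0 of 2 tested passed, with sums of 348 to 384 against 135 to 303, and Foxp3 was not analysed here. For B cells 3 were measured and 0 of 1 tested passed, with sums of 179 to 288 against 83.4 to 122. None of the measured markers of these 5 cell types was at 0 on any array. At an unadjusted p under 0.05 limma had 1 regulatory T cell marker and 1 B cell marker higher, and 0 markers of these 5 types lower. The share of all genes at that threshold was not counted. The part of these cell types in the differences of the set was not tested.

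The genes of the set were also read relative to these markers on the same array. The measure is the log2 signal of a gene minus the mean log2 signal of a few markers taken from these lists, 3 of T cells or 4 of macrophages and dendritic cells, and only its change between tissues can be read, since levels of different probe sets are not comparable. For Cd86 against Cd68, Csf1r, Mpeg1 and Itgax it was -2.77, -2.87 and -3.19 in peri-implant tissue, against -2.34, -1.91 and -2.14 in mucosa. The groups did not overlap, and the difference of Cd86 was 0.81 smaller than the mean difference of these markers (exact permutation p = 0.1, two-sided, the smallest p that 3 against 3 allows). The size depends on the markers. The relative difference of Cd86 was -0.32 without Itgax (exact permutation p = 0.1) and -0.285 against all 7 tested macrophage markers (exact permutation p = 0.3), both chosen after seeing the data, and -0.41 with the mean of the probe sets of each gene. For Cd83 the relative value was lower by 1.54 in peri-implant tissue (-2.09, -2.41 and -2.35 against -0.97, -0.83 and -0.43), again without overlap. The p was again the smallest of the exact test. Relative differences were -1.05 without Itgax and -1.02 against all 7 macrophage markers. The Cd83 signal itself differed by 0.09, whereas the mean of the 4 markers differed by 1.63. These relative values thus read the rise of the markers, not a fall of Cd83. Itgax, and Adgre1 among the 7, passed the filter only through the peri-implant arrays. The lack of overlap and the p-value therefore do not bear on Cd83 itself. Icos against Cd3e, Cd3g and Cd247 stood at 0.15, 0.35 and 0.14 in peri-implant tissue, against 0.29, 0.91 and 1.01 in mucosa, and the groups overlapped (exact permutation p = 0.2, n = 3 each). Its difference of -0.53 turned to 0.13 after flooring, where the dim mucosal Cd3e signal no longer entered. For Cd28, Ctla4, Cd80 and Cd40, which did not pass the filter, the measure is not read. Cd86 did pass, but its mucosal mean was dim, and its relative difference was -0.89 after flooring.

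**Figure D4:**
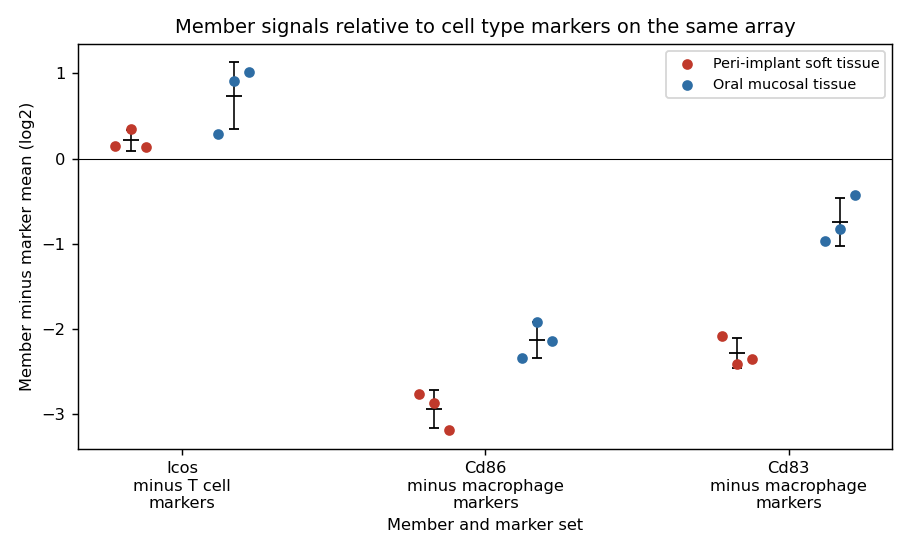
Log2 signal of Icos minus the mean of 3 T cell markers, and of Cd86 and Cd83 minus the mean of 4 macrophage and dendritic cell markers, on each array, peri-implant points left of mucosal points, mean and SD in black. Relative to the markers, Cd86 and Cd83 sit lower in peri-implant tissue without overlap, by 0.81 and 1.54, and the Icos points overlap. The Cd83 signal itself was nearly level between the tissues. Both differences include Itgax, which was dim in mucosa, and were smaller in size without it. The mean Cd86 signal was dim in mucosa.

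Other cell types gave the setting of these signals, again beside shares of 15.2% higher and 11.0% lower over all genes tested. Keratinocyte markers were high on all arrays and went both ways, with Krt1 higher by 1.14, Krt5, which fell by 0.50, lower, and 4 of 6 not past the threshold. Fibroblast markers were lower in 5 and higher in 1 of 6, among them Col1a1, Lum, Col1a2 and Pdgfra, which fell by 0.83, 0.86, 0.75 and 0.83. Neutrophil markers were higher in 3 of 4, endothelial markers in 1 of 4 (Kdr, by 0.70) and erythrocyte markers in 2 of 3 tested, with 0 lower in each. S100a9, S100a8 and Csf3r among the neutrophil markers were higher by 2.77, 1.89 and 2.26, and Alas2 and Slc4a1 among the erythrocyte markers by 0.63 and 1.03. The other neutrophil marker, Cxcr2, differed by -0.10 and did not pass (limma adjusted p = 0.762). Kdr was not called without any 1 of the 3 peri-implant arrays or without mucosal array 2, and the erythrocyte count was 1 without peri-implant array 2 or 3 or mucosal array 1 or 2, and 0 without the variance trend. Of the skeletal muscle markers Mb, myoglobin, was higher by 4.10, and Myh1 did not pass. Mb was dim in mucosa and passed the filter only through the peri-implant arrays, and its difference was 2.45 after flooring. Acta1, skeletal muscle actin, was not tested in the main comparison and stood at 2.87 ± 1.52 against 6.93 ± 0.04 (limma without a filter, adjusted p = 0.00469), with a difference of -1.04 after flooring. Of the salivary gland markers 0 of 1 tested passed, Muc5b, at 6.40 ± 0.50 against 6.22 ± 0.49, and Smr3b, dim in both tissues, stood at 0.91 ± 0.79 against 4.73 ± 0.38 (limma without a filter, adjusted p = 0.0259) with a difference of 0 after flooring. Median signal was 6.62 to 6.78 over the 6 arrays, and no array stood apart from its group: each correlated with the others of its group at 0.965 or more over tested probe sets, and with arrays of the other tissue at 0.945 or less.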

How the data were processed

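Per the labels' protocols, biotin-labelled RNA was made from total RNA with the GeneChip 3'IVT Express Kit. Each of the 6 samples has 1 array. The deposited table holds log2 signals to which the authors had given a common level: after conversion to linear values and removal of the outer 2% on both sides, each array averaged 500.2. The software is not given in the sources used here. Of 31099 probe sets, 57 were controls and 20826 others had a single symbol in the array annotation. Values were used as deposited. The 18625 probe sets whose mean over 6 arrays exceeded the 40th percentile were tested with limma 3.58.1 in R 4.3.3 (variance trend, two-sided, Benjamini-Hochberg over all tested, threshold 0.05), which was also tested on simulated data. Differences are peri-implant minus mucosal. Adjusted p-values come from this fit unless stated.

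The members and the 18 related lists (182 entries, 135 measured) were chosen with earlier results of these data known. The text names all members, their direct partners, up to 4 list genes with the smallest p, and the 3 genes nearest to Sectm1b. Cd4, Cd3d, Cd8a, Ifng and Zap70 were named after their values were seen. The number of arrays limits the precision. Alternatives were another normalisation, filter, floor, variance model, replicate block and probe set rule, and leaving out each array. Other marker sets for the relative values were added after seeing the data.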

Additional observations from a re-analysis of the deposited data

How the results depend on the processing

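Over 15 alternatives, Sectm1b was called higher in all, with a difference of 4.34 to 4.59 (limma adjusted p from 5.95e-13 to 7.79e-05). Icos was called higher in 14, with a difference of 1.68 to 2.13 (limma adjusted p from 1.03e-05 to 0.0185). With the filter at the 60th percentile its mean fell below the filter and it was not tested, so 1 member was called higher in place of 2, and 29 genes of the related lists in place of 44. Without the variance trend 718 genes of the array were called lower in place of 1161, and Cd86 passed (limma adjusted p = 0.0270). The cause was not tested. Without a filter Cd40 passed (limma adjusted p = 0.0323). Leaving out single arrays kept the count of members called at 2 higher and 0 lower, with 1183 to 1615 genes of the array higher and 867 to 1113 lower. The difference of Cd83 turned to -0.0298 without peri-implant array 1, lay between -0.0298 and 0.22 when single arrays were left out, and was called in none of the 15. After flooring, the difference of Icos relative to T cell markers turned to 0.13, with dim mucosal values entering at the floor. That of Cd40 relative to macrophage markers turned from 1.65 to -1.001, and it is not read, since Cd40 did not pass the filter. After flooring, the differences of Cd80 and Cd28 became 0 and that of Cd40 became 0.53. Counts of calls in the single lists were equal or stayed within 1.5 times in 499 of 540 comparisons. Many of these were counts of 0 that stayed 0, so this number says little about the other counts. The counts that moved most often were those of erythrocyte and endothelial markers called higher, which held in 7 and 9 of the 15 alternatives. Deviations from the group means of same-numbered arrays correlated at 0.013, -0.0789 and 0.0272, and not every array correlated best with its own number. With 3 arrays a group these values cannot show whether samples of the 2 tissues came from the same rats, and the labels state no pairing. With the replicate number as a block, 1562 genes were called higher and 1142 lower, with 2 members higher, and no call of a member changed. Signals below the floor limit what can be read for Cd28, Ctla4, Cd80 and Cd40, and for Cd86 in mucosa.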
